A study of Rattus norvegicus with 20 samples.

Results

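Heat shock proteins of the cytosol and of mitochondria were followed in the accumbens shell, a part of the ventral striatum that belongs to the reward circuit, in rats that had or had not drunk ethanol. They comprise 10 genes: the HSP90 chaperones Hsp90aa1 and Hsp90ab1, the constitutive HSP70 Hspa8, its partners Hsph1, Dnajb1 and Bag3, the small heat shock protein Hspb1, the mitochondrial chaperonin pair Hspd1 and Hspe1, and the regulator Hsf1. Members were the probe sets to which the platform's annotation gives 1 of these symbols and no other gene, which gave 11 probe sets of 8 genes out of 31099 probe sets on the array. For Hspa8 and Hsp90aa1 every probe set listed also names another gene, so no value is given for these 2 genes. All 11 probe sets lay above the level under which dim probe sets were left out of the tests.

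RNA of 20 rats of the alcohol-preferring (P) line, selected over generations for drinking much ethanol by choice, was measured on 1-colour Affymetrix arrays. The ethanol group (n = 10) was offered solutions of 15 and 30% ethanol during adolescence, and the water group (n = 10) had water only. Each animal gave 1 array. The sources used here do not give the sex, the age at dissection or the time since the last drink. Values are on the log2 scale, where a difference of 1 is a doubling, and array medians lay between 7.93 and 7.98.

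Heat shock proteins are chaperones that hold, fold or sort other proteins. Members of the HSP70 family bind unfolded stretches, J proteins such as Dnajb1 stimulate their ATPase, and Hsph1 and Bag3 release the nucleotide so that the client is let go. HSP90 acts later on partly folded clients such as kinases and steroid receptors, small heat shock proteins such as Hspb1 keep unfolding proteins from clumping, and Hspd1 with its lid Hspe1 folds proteins imported into mitochondria. Under heat or other protein damage, Hsf1 binds repeats of a GAA unit in alternating orientation, the heat shock element, and switches most of these genes on. Neurons carry high constitutive levels of several of them.

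The promoter windows below show these repeats and are given for the genes on which the later results turn. Each runs 5′ to 3′ along the gene's own strand, from 250 bases before to 50 after the transcript's start, and comes from RefSeq on build GRCr8. Capitals mark every match to GAANNTTC, TTCNNGAA or to a 3-unit form (GAANNTTC followed by NNGAA), in which N is any base, searched on both strands and with overlaps allowed. The Hspe1 window is chr9:64084077-64084376 on the plus strand, and the Hsph1 window is chr12:10427118-10427417 on the plus strand. The Dnajb1 window is chr19:41431092-41431391 on the minus strand, and the Bag3 window is chr1:192533210-192533509 on the plus strand.
Hspe1: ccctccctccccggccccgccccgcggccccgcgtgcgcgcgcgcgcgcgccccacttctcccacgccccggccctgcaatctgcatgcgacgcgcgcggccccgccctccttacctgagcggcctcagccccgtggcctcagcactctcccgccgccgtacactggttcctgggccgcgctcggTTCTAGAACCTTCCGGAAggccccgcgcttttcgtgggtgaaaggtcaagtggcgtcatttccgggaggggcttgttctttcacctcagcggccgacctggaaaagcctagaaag
Hsph1: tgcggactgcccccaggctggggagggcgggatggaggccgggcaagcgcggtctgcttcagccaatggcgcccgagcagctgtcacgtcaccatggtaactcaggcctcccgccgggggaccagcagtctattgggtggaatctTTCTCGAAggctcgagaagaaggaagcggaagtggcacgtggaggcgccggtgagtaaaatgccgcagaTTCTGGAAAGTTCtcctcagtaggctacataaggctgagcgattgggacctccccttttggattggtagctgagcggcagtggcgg
Dnajb1: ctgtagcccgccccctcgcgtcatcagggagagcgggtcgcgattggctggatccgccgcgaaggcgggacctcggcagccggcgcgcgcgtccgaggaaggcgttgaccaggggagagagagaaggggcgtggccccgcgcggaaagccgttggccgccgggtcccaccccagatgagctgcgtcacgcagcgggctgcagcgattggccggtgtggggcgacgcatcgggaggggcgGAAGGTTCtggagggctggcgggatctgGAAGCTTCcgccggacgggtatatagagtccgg
Bag3: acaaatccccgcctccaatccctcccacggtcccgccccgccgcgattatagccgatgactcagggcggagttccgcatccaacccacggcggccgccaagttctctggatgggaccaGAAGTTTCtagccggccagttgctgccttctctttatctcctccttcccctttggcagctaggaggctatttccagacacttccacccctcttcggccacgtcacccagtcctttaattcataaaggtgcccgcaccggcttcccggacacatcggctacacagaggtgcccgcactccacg

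Windows were found for 8 of the 10 genes, and 7 of these 8 held a 2-unit match, against 15.85% of all 33469 windows of the same length. The 3-unit form was present in 4 (Hspa8, Hsph1, Hspd1 and Hspe1), against 0.8% of all windows. The Hsp90ab1 window (chr9:22930173-22930472) held none of these letters, and the gene record begins inside it, at 22930249. Hspd1 and Hspe1 are transcribed away from each other. The starts used here lie 290 bases apart on chromosome 9, so the 2 windows share 211 bases and the same cluster of GAA units. The Hspd1 gene record reaches further upstream than the start used, to 64084332, past the Hspe1 start at 64084327. A match describes the sequence and does not show that Hsf1 binds there.

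The comparison of ethanol with water asked whether drinking in adolescence left heat shock gene expression changed. No member passed the test: of 8 genes, each represented by its brightest probe set, 0 rose and 0 fell (limma, adjusted p under 0.05 over all probe sets), where 0.0931% of 10746 genes passed. At an unadjusted p under 0.05 the count was also 0 of 8, against 10% of all genes (1076 of 10746). Of the 11 probe sets 0 passed, against 0.0966% of all 20695 (0.0532% higher and 0.0435% lower), and 1 had an unadjusted p under 0.05, against 12.1% of all. The median difference of the 8 genes was -0.02 on the log2 scale, against 0.0002 for all genes. Over all 20 animals 1 gene was higher and 7 were lower in ethanol, where 49.9% of all genes were lower. Dnajb1 was lower in the brighter of its 2 probe sets only. Without water animals 17, 19 and 20, Hspd1, Hspe1 and Hsf1 were higher (0.0117, 0.0043 and 0.0365) and Hsph1 was lower (-0.00414). Hsp90ab1, Hspb1, Dnajb1 and Bag3 stayed lower. The most extreme ends of the 11 separate 95% intervals for the ratio of ethanol to water were 0.773 and 1.254, which is not a joint bound.

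**Figure D1:**
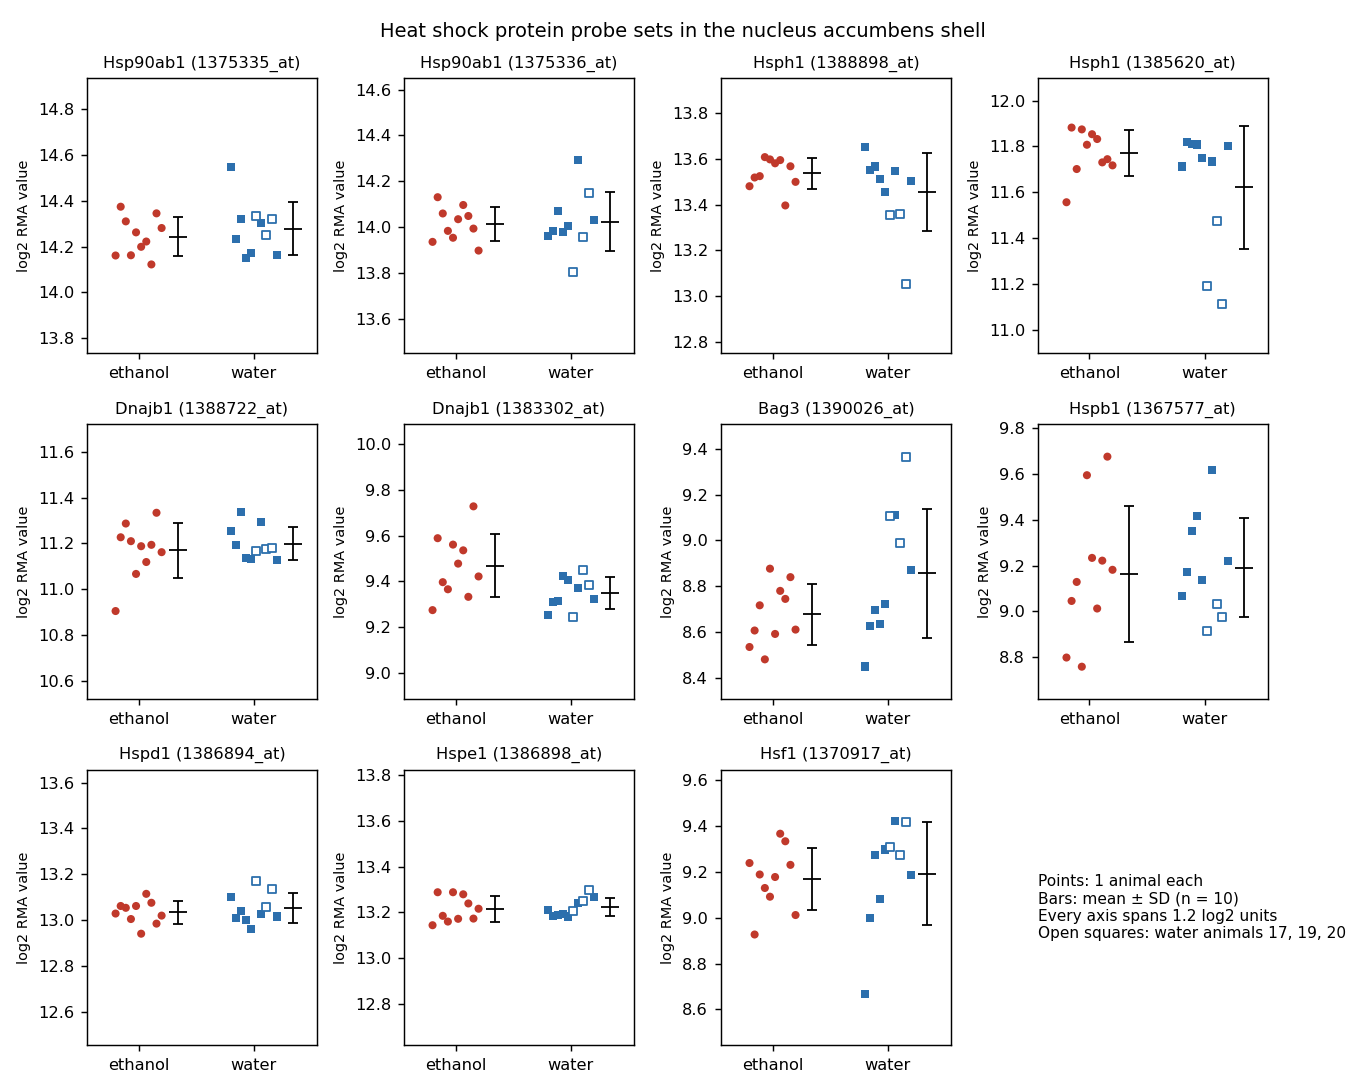
Log2 value of each of the 11 probe sets in every animal, ethanol (red circles) left of water (blue squares), with mean ± SD (n = 10 each) as bars and water animals 17, 19 and 20 as open squares. The groups overlap in every panel, and the open squares sit lowest for Hsph1 and high for Bag3.

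Cytosolic HSP90 did not pass in either probe set. Hsp90ab1, the constitutive cytosolic HSP90, ranged in its brighter probe set (1375335_at) from 14.12 to 14.37 with a median of 14.24 in ethanol, and from 14.15 to 14.55 with a median of 14.28 in water. The groups overlapped, with water animal 12 highest. The difference was -0.04 ± 0.05 (SE; adjusted p = 0.769), and -0.0053 without that animal (adjusted p = 0.962). The second probe set (1375336_at) averaged 14.01 ± 0.07 in ethanol and 14.02 ± 0.13 in water (SD, n = 10 each), a difference of -0.01 (interval -0.11 to 0.09, adjusted p = 0.944).

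Hsph1, the HSP110 that serves HSP70 as nucleotide exchange factor, was the 1 gene with a higher mean in ethanol. Its brighter probe set (1388898_at) ranged from 13.40 to 13.61 with a median of 13.54 in ethanol, and from 13.05 to 13.65 with a median of 13.51 in water. The ethanol animals formed a narrow band inside the water range, below which only water animals 17, 19 and 20 (13.35, 13.36 and 13.05) fell. The difference was 0.08 ± 0.06 (SE; adjusted p = 0.554), with 9 of 10 ethanol animals above the water mean. On the dimmer probe set (1385620_at) the same 3 water animals were lowest, at 11.19, 11.47 and 11.11, and the difference was 0.15 ± 0.09 (SE; adjusted p = 0.478). Without water animal 20 alone the brighter probe set differed by 0.0368 (adjusted p = 0.779). Without all 3 animals the differences were -0.004 and -0.007 (adjusted p = 0.978 and 0.969). Because these 3 were the lowest water animals for Hsph1, leaving them out had to lower its difference.

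Bag3, an HSP70 exchange factor that also routes clients to autophagy, had the largest difference of the members, lower in ethanol. It ranged from 8.48 to 8.88 with a median of 8.66 in ethanol, and from 8.45 to 9.365 with a median of 8.80 in water. All ethanol animals lay inside the water range, while water animals 17, 18, 19 and 20 (9.11, 9.11, 8.99 and 9.365) lay above every ethanol animal. The difference was -0.18 ± 0.09 (SE; interval -0.37 to 0.01, adjusted p = 0.444), a ratio of 0.883, with 9 of 10 ethanol animals below the water mean. Without water animals 17, 19 and 20 the difference was -0.05 (adjusted p = 0.834). As these were among the highest water animals for Bag3, leaving them out had to shrink the difference. Without water animals 12 and 13 it was -0.26 (adjusted p = 0.269). Those 2 were the lowest water animals for Bag3 (8.45 and 8.63), so leaving them out had to widen the difference. By runs of the order of deposit, which no label calls a batch, the differences were -0.02, -0.23 and -0.39 (4 against 4, 4 against 4 and 2 against 2 animals). For the brighter Hsph1 probe set they were -0.04, 0.11 and 0.26.

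Dnajb1, the J protein that delivers clients to HSP70 and stimulates it, gave opposite signs in its 2 probe sets. In the brighter one (1388722_at) the values ranged from 10.90 to 11.33 with a median of 11.19 in ethanol, and from 11.13 to 11.34 with a median of 11.18 in water. That difference was -0.03 ± 0.05 (SE; adjusted p = 0.801). In the dimmer one (1383302_at) they ranged from 9.28 to 9.73 with a median of 9.45 in ethanol, and from 9.24 to 9.45 with a median of 9.35 in water. There 5 ethanol animals lay above the highest water animal. The difference was 0.12 ± 0.05 (SE), with an unadjusted p of 0.0247 that did not pass over all probe sets (adjusted p = 0.364).

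The gap between the 2 Dnajb1 probe sets differed between the groups. The dimmer minus the brighter value averaged -1.70 ± 0.13 in ethanol and -1.85 ± 0.11 in water (SD, n = 10 each), a difference of 0.15 (two-sided permutation test over animals, p = 0.0149, adjusted p = 0.0447 over the 3 genes with 2 probe sets). This test was chosen after the values had been seen, so its p describes the gap and does not stand as independent evidence. For Hsph1 the gap differed by 0.07 and for Hsp90ab1 by 0.02 (permutation test, adjusted p = 0.357 and 0.711). With the 3′ minus 5′ value of the control probe sets, a measure of RNA integrity, as a covariate, the dimmer Dnajb1 probe set differed by 0.06 (adjusted p = 0.792). That value averaged 1.16 ± 0.11 in ethanol and 1.29 ± 0.15 in water (SD, n = 10 each), and its part in the gap was not tested.

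Hspb1, a small heat shock protein that also steadies actin filaments, had the largest spread of the members between ethanol animals. It ranged from 8.76 to 9.68 with a median of 9.15 in ethanol, and from 8.92 to 9.62 with a median of 9.16 in water. Ethanol animals 5 and 9 (9.60 and 9.68) and water animal 18 (9.62) were high, and ethanol animals 1 and 4 (8.80 and 8.76) were low. By runs of the order of deposit, as for Bag3, the differences changed sign, at -0.32, 0.09 and 0.33. Ethanol animals 1 and 4 both belonged to the first run. The difference was -0.03 ± 0.11 (SE; interval -0.25 to 0.20, adjusted p = 0.939).

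**Figure D2:**
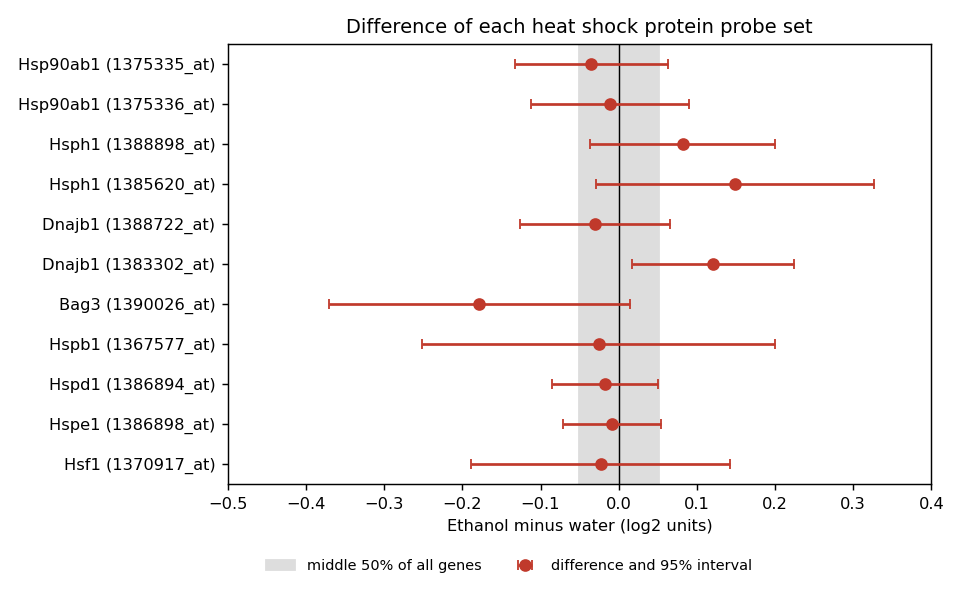
Ethanol minus water (log2 units) for each of the 11 probe sets, with its 95% interval from limma and, in grey, the range of the middle 50% of all 10746 genes (-0.05 to 0.05). The intervals of Hspd1 and Hspe1 are the narrowest, and 1 interval, that of the dimmer Dnajb1 probe set, does not reach 0.

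The mitochondrial chaperonin pair had the narrowest intervals of the members. Hspd1, the folding chamber, ranged from 12.94 to 13.11 with a median of 13.04 in ethanol, and from 12.96 to 13.17 with a median of 13.03 in water. Hspe1, its lid, ranged from 13.14 to 13.29 with a median of 13.20 in ethanol, and from 13.18 to 13.30 with a median of 13.21 in water. The groups overlapped for both genes, although 4 ethanol animals lay just below the lowest water animal for Hspe1. Hspd1 differed by -0.02 and Hspe1 by -0.01 (adjusted p = 0.84 and 0.924). As percent change from the water level, these intervals run from -5.72% to 3.53% for Hspd1 and from -4.8% to 3.81% for Hspe1.

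Hsf1 itself, the transcription factor above these genes, ranged from 8.93 to 9.37 with a median of 9.18 in ethanol, and from 8.67 to 9.42 with a median of 9.27 in water. Water animal 12 had the lowest value and water animals 18 and 20 the highest. Its difference was -0.02 ± 0.08 (SE; adjusted p = 0.921). Activation of Hsf1 occurs on the protein, so its transcript does not report it.

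Among the other chaperone genes likewise 0 of 81 measured genes passed (limma), 28 being higher and 53 lower in ethanol, where 49.9% of all genes were lower. Without water animals 17, 19 and 20 there were 43 higher and 38 lower. Their median difference was then 0.004, against 0.0092 for all genes in that setting. Over all 20 animals the median difference of the 81 genes was -0.02. At an unadjusted p under 0.05 there were 12, of which 5 were higher and 7 lower, against 5.24% higher and 4.77% lower among all genes. That count was 6 without water animals 17, 19 and 20, where the share of all genes was 8.45%. It was 6, 5 and 7 without ethanol animal 1, ethanol animal 5 or water animal 20 alone (7.62%, 6.77% and 7.71% of all genes). Over the 20 single omissions it ranged from 5 to 13. It was 13 of 81 (16%) without ethanol animal 6, for example, where the share of all genes was 9.2%. The genes named below are the 3 of smallest p in each list, and none of them passed.

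Within the HSP70 family, Hspa4l, an HSP110 relative of Hsph1, averaged 11.895 ± 0.06 in ethanol and 11.80 ± 0.04 in water (SD, n = 10 each; difference 0.09, adjusted p = 0.3). Hspa13 and Hspa2 differed by -0.12 and -0.16. The stress-inducible Hspa1a, a textbook Hsf1 target named outside the rule, differed by 0.14 with a wide interval (-0.17 to 0.45, adjusted p = 0.702). Of 16 J proteins, Dnaja2 was 0.08 higher with all 10 ethanol animals above the water mean, and Dnajc18 and Dnajb2 differed by 0.08 and -0.13. Among 8 HSP70 co-chaperones, Bag6, Bag4 and St13 differed by -0.13, 0.07 and -0.05. Without water animals 17, 19 and 20, Hspa4l, Hspa13 and Hspa2 differed by 0.084, -0.074 and -0.07. Dnaja2, Dnajc18 and Dnajb2 then differed by 0.047, 0.074 and -0.033. Bag6, Bag4 and St13 then differed by -0.171, 0.061 and -0.031.

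Over all 20 animals the cytosolic folding machinery had mostly negative differences, of which 0 passed. All 13 measured subunits of the cytosolic chaperonin CCT and of prefoldin, which brings nascent actin and tubulin to it, had a negative difference, with a median of -0.04. This depended on 3 arrays: without water animals 17, 19 and 20, 7 of 13 were lower and 6 higher. The median was then -0.01, against 0.0092 for all genes. Prefoldin subunits led that list, Pfdn1, Pfdn5 and Pfdn2 differing by -0.13, -0.10 and -0.13 (adjusted p = 0.304, 0.364 and 0.404), and by -0.115, -0.095 and -0.033 without these 3 animals. Of 14 HSP90 co-chaperones 11 were lower, and 6 without them. Cacybp, which bridges subunits of a ubiquitin ligase, differed by -0.22 and Cdc37l1 by -0.17, while Fkbp5, a glucocorticoid-induced brake on steroid receptors, was 0.14 higher (adjusted p = 0.364, 0.397 and 0.506). Without the 3 animals these were -0.127, -0.086 and 0.004. Water animal 20 was the highest water animal for Pfdn1, Pfdn5, Pfdn2, Cacybp and Cdc37l1 (11.64, 12.29, 13.12, 12.45 and 9.15) and the lowest for Fkbp5 (9.31), and the part of cell composition in these differences was not tested. The small heat shock proteins Cryab, Hspb6 and Hspb8 differed by -0.17, -0.05 and 0.02, and by 0.063, 0.006 and -0.006 without the 3 animals.

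Of 13 mitochondrial quality control genes 9 had a positive difference, and 0 passed. Clpp, a matrix protease, averaged 10.39 ± 0.13 in ethanol and 10.17 ± 0.21 in water (SD, n = 10 each; difference 0.22, adjusted p = 0.304). Htra2, a protease of the intermembrane space, was 0.14 higher, and Spg7, a subunit of an inner membrane protease, differed by -0.09. All 10 ethanol animals lay above the water mean for both Clpp and Htra2, which differed by 0.221 and 0.117 without water animals 17, 19 and 20. Of the further genes tied to heat shock factors, Hsf2bp, Hsbp1 and Hsf2 differed by 0.24, 0.02 and -0.01. Hsf2bp lay near the level of the dim probe sets (6.89 in ethanol and 6.66 in water) and differed by 0.043 without the 3 animals. Of 16 other known Hsf1 targets 7 were higher and 9 lower, with a median of -0.01. Without the 3 animals 10 were higher and 6 lower, with a median of 0.018, against 0.0092 for all genes. Among these targets the smallest p-values belonged to Hspa4l, Cacybp and Ahsa1, an activator of the HSP90 ATPase (-0.07).

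**Figure D3:**
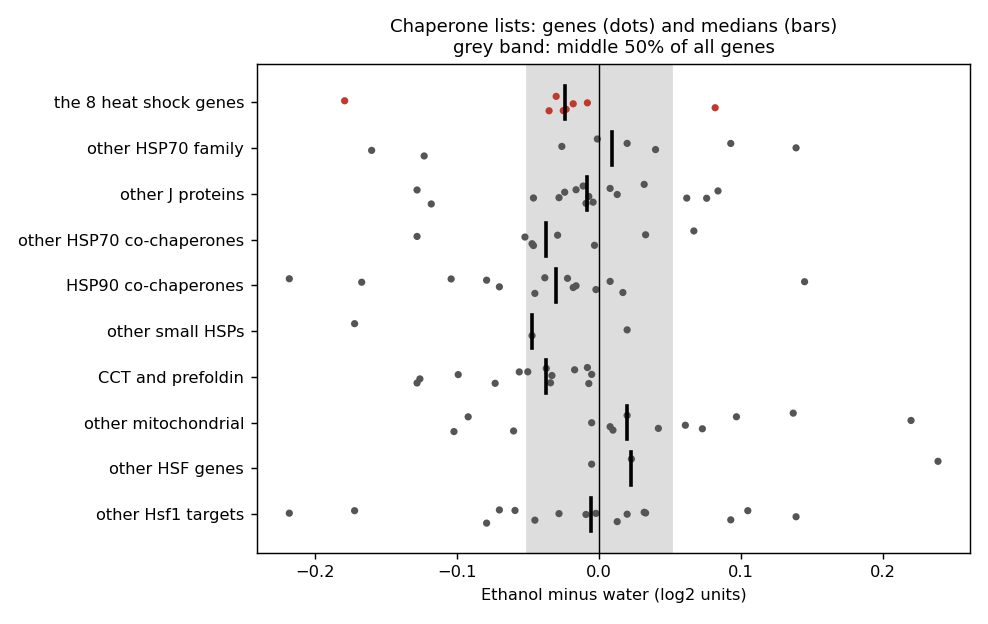
Ethanol minus water (log2 units) for the 8 heat shock genes (red) and the other chaperone lists (grey dots, 1 per gene), with list medians as bars and the middle 50% of all genes as a grey band. All list medians lie inside the band, and every CCT and prefoldin gene lies left of 0 with all 20 arrays (7 of 13 without water animals 17, 19 and 20).

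The members also varied between animals of a group. The SD was larger in water for 5 of 8 genes, against 81.2% of all genes. In pairs of members, taken as values minus their group means over 20 animals, 28 correlations were computed and 0 passed after adjustment (permutation within groups, two-sided). The strongest was Bag3 with Hsf1 (Pearson r = 0.698, permutation p = 0.00195, adjusted p = 0.054; Spearman rho = 0.638, permutation p = 0.00564, adjusted p = 0.0573). Hsph1 ran against Bag3 (r = -0.676, permutation p = 0.00579, adjusted p = 0.054; rho = -0.489, permutation p = 0.0514, adjusted p = 0.24). Leaving out the 2 animals farthest from the median of the first gene gave r = 0.524 for Bag3 with Hsf1 and r = -0.467 for Hsph1 with Bag3. Without water animals 17, 19 and 20 the pair Hsph1 and Bag3 had r = -0.152 (permutation p = 0.565; rho = -0.127), and Bag3 and Hsf1 had r = 0.655 (permutation p = 0.0142, adjusted p = 0.12; rho = 0.544).

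The chaperonin genes whose promoter windows overlap did not pass either. Hspd1 and Hspe1 had r = 0.532 (permutation p = 0.0152, adjusted p = 0.0976) and rho = 0.626 (permutation p = 0.00349, adjusted p = 0.0573), and r = 0.593 without the 2 animals farthest from the Hspd1 median. Hspe1 also went with Bag3 (r = 0.565, permutation p = 0.00406, adjusted p = 0.054; rho = 0.552, permutation p = 0.00631, adjusted p = 0.0573), with r = 0.536 without the 2 farthest animals. Between the 2 probe sets of 1 gene, r was 0.824 for Hsph1, 0.304 for Dnajb1 and 0.038 for Hsp90ab1 (permutation p = 0.00035, 0.274 and 0.884, adjusted over the 3 genes 0.00105, 0.411 and 0.884), and rho was 0.756, 0.003 and 0.114 (permutation p = 0.00094, 0.993 and 0.641). Without the 2 farthest animals r was 0.676, -0.378 and 0.104. For Hsph1 it was 0.362 without water animals 17, 19 and 20.

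**Figure D4:**
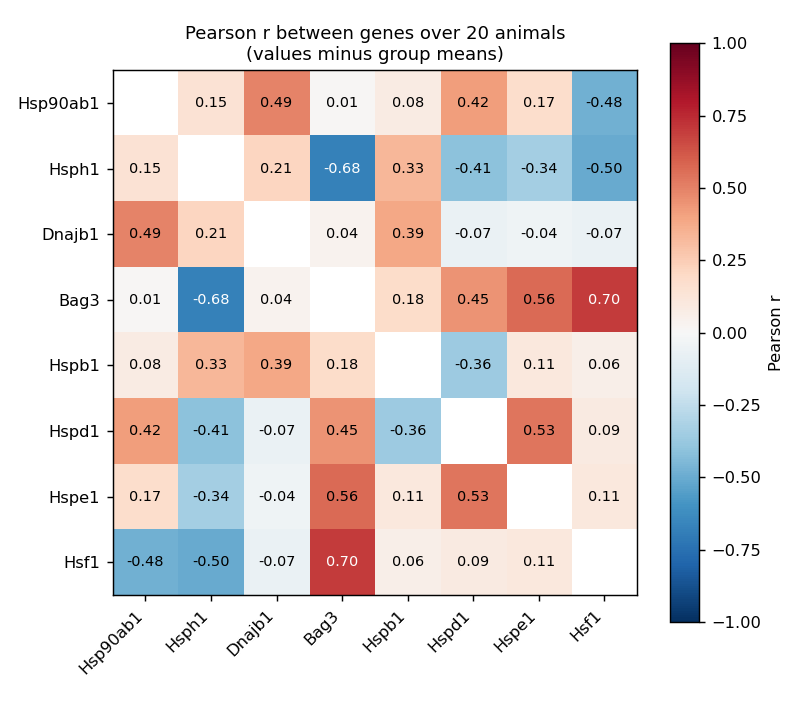
Pearson r between the 8 genes over 20 animals, on values minus group means, from blue (-1) to red (1). Bag3 is red with Hsf1, Hspe1 and Hspd1 and blue with Hsph1.

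Medium spiny neuron markers were lowest in the 3 water animals that were lowest for Hsph1. Medium spiny neurons, which send the striatum's output, had 11 measured markers, all of them higher in ethanol, and their mean lay between 12.43 and 13.10 in ethanol and between 11.59 and 13.06 in water. Water animals 17, 19 and 20 had means of 11.90, 12.16 and 11.59, below every other animal. The other water animals lay between 12.71 and 13.06, inside the ethanol range. Oligodendrocyte markers (11 measured, all lower in ethanol) lay between 11.22 and 12.17 in ethanol and between 11.24 and 12.20 in water, and astrocyte markers (9 measured, 6 lower) between 11.38 and 11.67 in ethanol and between 11.37 and 11.82 in water. The oligodendrocyte means of animals 17, 19 and 20 (12.20, 12.015 and 12.03) did not stand apart from that of ethanol animal 8 (12.17). The other water animals lay between 11.24 and 11.95 for oligodendrocytes, again inside the ethanol range. These counts of markers use all 20 animals and were not repeated without animals 17, 19 and 20. Markers of a list were read in the same animals, so such a count is not a set of separate results. For astrocytes water animal 20 was highest (11.82), while animals 17 and 19 (11.65 and 11.67) lay near ethanol animal 8 (11.67). Their oligodendrocyte precursor means (9.66, 9.62 and 9.71 for 17, 19 and 20) lay above every other animal, ethanol animal 8 coming next at 9.55. None of the genes measured on these lists passed the test (limma). In bulk tissue fewer cells of a type and less RNA per cell cannot be told apart.

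Between members and array measures (8 marker lists and the 3′ minus 5′ value) 72 correlations were computed after the values had been seen. The oligodendrocyte precursor mean rests on 3 measured genes and the cortical excitatory value on 1 (Cux2). By Pearson's r 5 passed, and by Spearman's rho 0 passed (smallest adjusted p = 0.0684). Hsph1 went with the medium spiny neuron mean across animals (r = 0.832, permutation p = 0.00032, adjusted p = 0.0115; rho = 0.72, permutation p = 0.0016, adjusted p = 0.0684). With the means of astrocyte, oligodendrocyte precursor and oligodendrocyte markers it had r = -0.802, -0.708 and -0.619 (permutation p = 0.00013, 0.00091 and 0.00265, adjusted p = 0.00936, 0.0218 and 0.0416), and rho = -0.639, -0.424 and -0.666 (permutation p = 0.00507, 0.0865 and 0.00285). Hspd1 had r = -0.683 with the medium spiny neuron mean (permutation p = 0.00289, adjusted p = 0.0416; rho = -0.591, permutation p = 0.00726), and Bag3 had r = -0.598, which did not pass (permutation p = 0.0245, adjusted p = 0.11; rho = -0.414, permutation p = 0.109). Leaving out the 2 animals farthest from the median of the member gave r = 0.648, -0.622, -0.494, -0.578, -0.471 and -0.417 in this order. Larger correlations than that of Bag3 with medium spiny neurons also did not pass. Bag3 had r = 0.626 with the astrocyte mean (permutation p = 0.00727, adjusted p = 0.0806). With the microglia mean Hspd1 had r = 0.615 and Hsph1 r = -0.657 (permutation p = 0.00784 and 0.0145, adjusted p = 0.0806 and 0.104).

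Water animals 17, 19 and 20 had the lowest medium spiny neuron means, so leaving them out narrows the range on which r rests. Without them, over 17 animals, 0 of 72 correlations passed. Over these 17 animals Hsph1 had r = 0.335, -0.575, -0.29 and -0.523 with the medium spiny neuron, astrocyte, oligodendrocyte precursor and oligodendrocyte means (permutation p = 0.21, 0.0204, 0.279 and 0.0408, adjusted p = 0.859, 0.489, 0.859 and 0.587), and rho = 0.15, -0.54, 0.074 and -0.35 (permutation p = 0.579, 0.0323, 0.785 and 0.177). Hspd1 had r = -0.409 and Bag3 r = 0.162 with the medium spiny neuron mean (permutation p = 0.129 and 0.504). With the microglia mean Hspd1 had r = 0.629 and Hsph1 r = -0.051 (permutation p = 0.00726 and 0.849, adjusted p = 0.261 and 0.957). Bag3 had r = 0.265 with the astrocyte mean (permutation p = 0.305). With the medium spiny neuron mean as a covariate Hsph1 differed between ethanol and water by 0.003 and Bag3 by -0.08 (adjusted p = 0.986 and 0.76). The part of cell composition in the differences of Hsph1 and Bag3 was not tested further. Among pairs of members Hspb1 with Bag3 passed without the 3 animals (r = 0.713, permutation p = 0.00042, adjusted p = 0.0118; rho = 0.615, permutation p = 0.0112, adjusted p = 0.104; n = 17), against r = 0.18 over all 20.

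**Figure D5:**
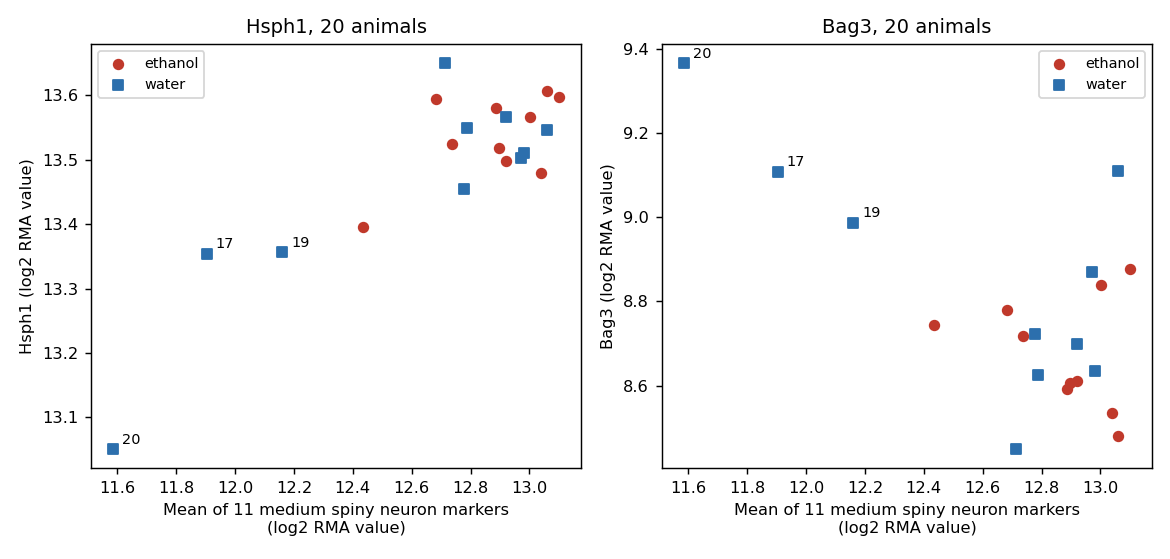
Hsph1 (left) and Bag3 (right) against the mean of 11 medium spiny neuron markers in each of the 20 animals, all in log2 RMA values, ethanol as red circles and water as blue squares. Water animals 20, 17 and 19 lie apart at the low end of the marker axis, where Hsph1 is low and Bag3 high.

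The genes whose pattern over the 20 animals was most like the mean of the 8 standardised members were Msn, Gemin7, Ccdc12, Ccdc8 and Slc39a7 (r = 0.76, 0.74, 0.718, 0.677 and 0.672, on values minus group means, the highest of 10654 genes compared). They describe a mean profile to which the members themselves had r between -0.069 (Hsph1) and 0.647 (Bag3).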

How the data were processed

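The deposited table holds log2 values of 31099 probe sets in 20 arrays. Per the submitters' processing notes the authors processed the arrays with RMA (background correction, quantile normalization and probe summary by its usual definition); the sources used here name no software or chip definition. Per the labels' protocols, biotinylated cRNA was made with a kit that labels from the 3′ end, so values can depend on RNA integrity. The values lay between 3.89 and 16.25.

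Genes came from the platform's table (20826 probe sets with 1 gene, 436 with several), and 20758 matched RefSeq for GRCr8 by identifier. The lowest 33.3% of probe sets by mean (below 6.65; no detection calls were used) and 57 controls were left out, leaving 20695 probe sets. The brightest probe set stood for each of 10746 genes. Groups were compared with limma 3.58.1 (R 4.3.3; lmFit, eBayes, two-sided, no covariates), and p-values were adjusted by Benjamini-Hochberg over all of these probe sets, called under 0.05. The fit was tested on simulated data. Correlations used 100000 permutations within groups. Named genes were all members, plus the 3 of smallest p in each of 9 chaperone lists, where none passed, and the 5 genes most like the members' mean profile; Hspa1a was added after its values were seen. The members and lists were chosen with earlier results of these data known. The tests between probe sets of a gene and with marker means were added after the values were seen. Alternatives changed the filter, normalization, variance model, weights, probe set choice and covariates, or left arrays out. The number of arrays limits precision.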

Additional observations from a re-analysis of the deposited data

Results flagged for a closer look

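Of 72 groups of 10 animals examined (members and named chaperone genes, by probe set and treatment), 5 held an animal whose gap to the next was large for the group's range (Dixon's 95% criterion). Chance flags about 1 in 20, or 3.6 here. Water animal 12 was high for Hsp90ab1 (14.546 on probe set 1375335_at, next 14.332). Water animal 20 was low for Hsph1 (13.051, next 13.354) and Dnaja2 (12.448, next 12.578) and high for Hspb6 (9.292, next 8.964). Ethanol animal 8 was low for Fkbp5 (9.596, next 9.827).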

How the results depend on the processing

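No member gene and no other chaperone gene passed under any of 14 other settings, no member probe set under any of 12, and none with any 1 of the 20 arrays left out. Among all probe sets 20 passed, against 8 with RNA integrity (3′ minus 5′) as a covariate, 10 with all under the median left out, 38 with array weights, 49 with the medium spiny neuron mean as a covariate and 50 without water animals 17, 19 and 20. At an unadjusted p under 0.05 those 14 gave 0 to 1 member genes and 6 to 13 other chaperone genes. Where that count was 6 or 7 of 81 (7.41% or 8.64%), the share of all genes was 6.05% to 9.01%. Of 28 correlations between members, 2 passed with group means kept and 1 without water animals 17, 19 and 20, against 0.

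Signs changed for 7 of the 8 genes under some setting, and none of these differences passed. The cause was not tested. With array weights Hsp90ab1 differed by 0.0125 and Hspd1 by 0.000458. Dnajb1 differed by 0.045 as the mean of its probe sets and by 0.12 with the more variable one. With the oligodendrocyte mean as a covariate Hspd1, Hspe1 and Hsf1 differed by 0.000426, 0.00203 and 0.0227, and with the medium spiny neuron mean by 0.0115, 0.00412 and 0.0252. Without water animals 17, 19 and 20 Hsph1 differed by -0.00414, Hspd1 by 0.0117, Hspe1 by 0.0043 and Hsf1 by 0.0365. Leaving out 1 array gave ranges of -0.082 to 0.0221 for Hspb1, -0.081 to 0.0038 for Hsf1 and -0.017 to 6.88e-05 for Hspe1. For Hsph1 the range was 0.0368 to 0.103, for Bag3 -0.224 to -0.122 and for Dnajb1 -0.0486 to -0.00095. No paired analysis was possible because the animal numbers are not shared between the groups.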
